A study of Mus musculus with 6 samples.

Results

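This account covers 10 genes of the LIF receptor, STAT3 and SOCS pathway in mouse embryonic stem cells: Lifr, Il6st, Osmr, Jak1, Stat3, Socs1, Socs2, Socs3, Bcl3 and Pim1. They were chosen by name, and their probes by a transcript accession that a RefSeq gene table assigns to one of them. All 10 had a probe, 15 probes and 33 spots in all, out of 37074 genes or accessions and 55681 distinct probes on the array. Total RNA was measured in 6 samples of the J1 line, embryonic stem cells of mouse strain 129S4/SvJae adapted to gelatin-coated plates, on 1 single-colour array per sample. Each group had 3 samples: DMSO, the solvent control, for 6 h, and SC1 at 1 µM for 6 h. SC1 (pluripotin) is a synthetic compound described as an inhibitor of ERK1 and RasGAP. Every sample, controls included, was grown with 1000 U/mL LIF, so the comparison shows SC1 on top of continuous LIF and holds no group without LIF. The treatment text of the labels is the same for all samples and the groups come from the sample titles. The cells are 1 line. Whether replicates came from separate cultures is not given, so a p-value here reflects only the scatter of these samples, part of which may be technical. In such bulk RNA fewer cells of a type and less RNA per cell cannot be told apart.

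LIF binds LIFR, which pairs with gp130, the product of Il6st, and the receptor-bound kinase JAK1 then phosphorylates the transcription factor STAT3. STAT3 enters the nucleus and induces genes that sustain self-renewal in mouse embryonic stem cells, together with its own inhibitor SOCS3, which binds gp130 and JAK and closes a feedback loop. The same receptor also feeds the RAS and ERK cascade through the phosphatase SHP2, a branch that favours differentiation in these cells.

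On all 6 arrays the stem cell markers Pou5f1, Nanog, Sox2, Zfp42, Esrrb and Dppa5a were well above background, of which Sox2 and Zfp42 fell with SC1. Of 6 fibroblast markers 4 were above background on every array and 2, Postn and Lum, on none. Col1a1 and Dcn rose and Thy1 fell. The summed level of the list on the log2 scale was 1.12 to 1.21 on DMSO arrays and 0.71 to 0.81 on SC1 arrays, against 9 to 9.07 and 9.08 to 9.16 for the stem cell markers, and their part in the results was not tested. The share of probes well above background was 65.04% to 65.61% on DMSO arrays and 63.21% to 65.12% on SC1 arrays, and no 2 arrays held identical values. Pairs of arrays from the same group differed with an SD of 0.222 to 0.256 on the log2 scale, and pairs from different groups with 0.491 to 0.509. Of other lineages, 5 of 5 primitive endoderm markers, 1 of 4 trophoblast markers and 1 of 3 blood markers were above background on every array, with summed levels of -0.37 to -0.24, -0.04 to 0.08 and -2.66 to -2.44 with DMSO and -0.32 to -0.16, -0.42 to -0.34 and -2.30 to -2.18 with SC1. Foxa2, Gata4 and Cd48 rose and Cdx2 and Eomes fell among them. All arrays lay on 1 slide. By the first number of the position suffix of their barcode, 3 DMSO arrays and SC1 replicate 1 shared position 1 and the other 2 SC1 arrays had position 2. No DMSO array had position 2. A value at position 1, or with the first number as a block, thus compares SC1 replicate 1 alone with the 3 DMSO arrays. For single genes it is given without a test. Counts of calls from these fits are listed only in the last section and are not read as tests. By the second number, DMSO replicate 1 shared position 1 with SC1 replicate 2, and DMSO replicate 2 shared position 2 with SC1 replicate 3. DMSO replicate 3 (position 3) and SC1 replicate 1 (position 4) each stood alone. A fit with the second number as a block compares the groups only on the arrays that share a position. It thus has fewer arrays than the main fit, and an effect of position was not tested.

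With SC1, the feedback gene Socs2 fell 1.92-fold, the kinase gene Pim1 1.83-fold and the feedback gene Socs3 1.55-fold, while Stat3 rose 1.34-fold and Bcl3 1.27-fold. The receptor gene Lifr fell 1.12-fold. The co-receptor gene Il6st, the kinase gene Jak1 and Socs1 did not pass the test, and Osmr was not measured above background on any array. Of 9 members tested with limma, 2 rose, 4 fell and 3 did not pass at a Benjamini-Hochberg adjusted p under 0.05. Among all 25421 genes tested, 38.4% were called, 18.1% higher and 20.2% lower with SC1 (4613 and 5139 genes). After normexp background correction these counts were 6970 and 5071 with 75th percentile scaling and 5171 and 4776 with quantile normalization. The median log2 fold change was -0.031 for the 9 members and -0.0052 for all genes, and the median size without its sign was 0.349 and 0.1715. The arrays of the 2 groups did not overlap for 6 members, against 52.1% of all genes.

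**Figure D1:**
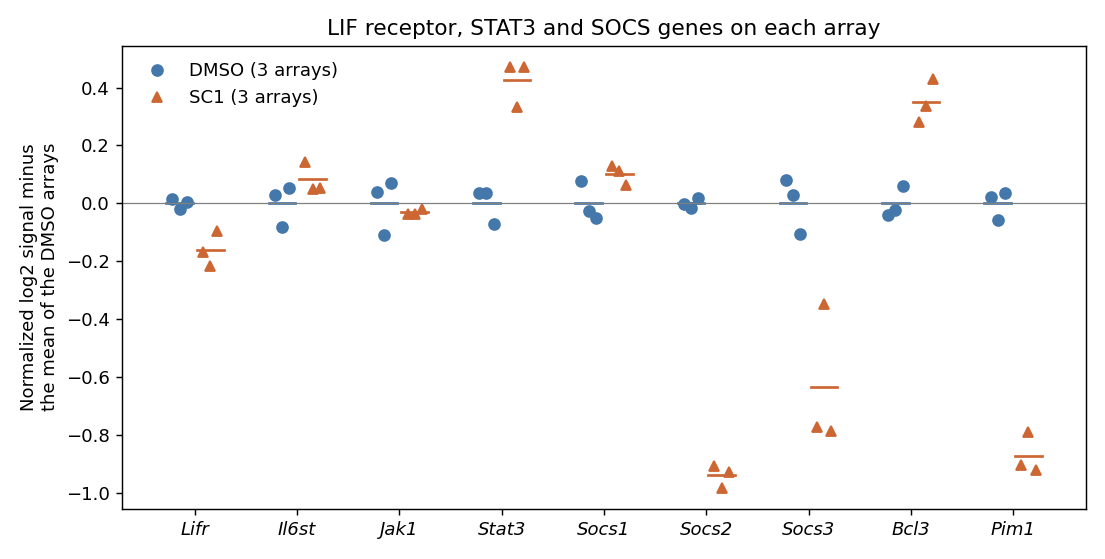
Normalized log2 signal of the 9 tested genes on each array (vertical axis), minus the mean of the 3 DMSO arrays, with DMSO as circles, SC1 as triangles and group means as horizontal lines. Socs2, Pim1 and Socs3 lie below all DMSO arrays with SC1 and Stat3 and Bcl3 above them, while 1 SC1 array of Socs3 lies apart from the other 2.

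The sequence just before the start of 4 of these genes is shown here because STAT3 binding is the event between the receptor and its target genes. RefSeq promoter windows (build GRCm38.p6) existed for 9 members, and the 250 bases before the annotated start were searched for TTCNNNGAA, the paired element that STAT dimers recognise, which reads the same on both strands. Capitals mark a match.
Socs3 upstream window, chr11:117969367-117969616, minus strand: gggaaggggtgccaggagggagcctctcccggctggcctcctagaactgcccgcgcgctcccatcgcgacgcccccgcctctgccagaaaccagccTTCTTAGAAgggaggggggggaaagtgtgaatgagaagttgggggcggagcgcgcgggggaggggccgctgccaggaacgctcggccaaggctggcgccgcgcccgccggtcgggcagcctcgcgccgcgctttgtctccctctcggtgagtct
Stat3 upstream window, chr11:100939541-100939790, minus strand: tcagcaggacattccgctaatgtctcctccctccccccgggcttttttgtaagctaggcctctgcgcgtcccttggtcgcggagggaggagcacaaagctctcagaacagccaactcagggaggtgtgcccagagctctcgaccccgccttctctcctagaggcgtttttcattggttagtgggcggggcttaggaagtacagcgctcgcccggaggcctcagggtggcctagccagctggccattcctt
Bcl3 upstream window, chr7:19822756-19823005, minus strand: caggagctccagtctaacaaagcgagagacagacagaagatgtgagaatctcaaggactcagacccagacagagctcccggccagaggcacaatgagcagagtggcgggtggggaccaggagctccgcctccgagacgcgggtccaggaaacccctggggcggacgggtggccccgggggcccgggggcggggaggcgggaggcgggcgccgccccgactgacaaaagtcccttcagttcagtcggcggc
Pim1 upstream window, chr17:29490535-29490784, plus strand: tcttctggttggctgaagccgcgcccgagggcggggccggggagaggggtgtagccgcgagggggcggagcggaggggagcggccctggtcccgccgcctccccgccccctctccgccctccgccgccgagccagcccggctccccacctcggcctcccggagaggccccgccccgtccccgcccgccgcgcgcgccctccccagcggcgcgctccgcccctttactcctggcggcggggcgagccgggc
Only the Socs3 window, among 11 windows of these 9 genes, held a match, TTCTTAGAA, from 154 to 146 bases before the start. Of 32851 windows of all genes 7.02% held one. Some starts lie inside the RefSeq genes, so these windows overlap the annotated gene spans given below. The overlap is partial for Stat3, Bcl3 and Jak1. The windows of Socs3 and Osmr, both of Lifr and the second of Pim1 lie wholly inside their gene spans. The match is a description of these letters, and no binding was measured. The windows of Jak1, Il6st, Osmr, Socs1, both of Lifr and the second of Pim1 had no match either, which says only that these letters are not in the windows. Socs2 was not in the table of windows.

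Below, a level is the log2 of the background-corrected spot signal minus the 75th percentile of its array, so that 0 is the signal at that percentile, and levels of different probes are not compared. A log2 fold change is the mean level with SC1 minus the mean level with DMSO, n = 3 per group. Signal units, where given, are not scaled between arrays and are not read as folds. The 75th percentile of the signal was 607.8 to 612.1 on DMSO arrays and 502.2 to 557.4 on SC1 arrays.

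Of the receptor chains, Lifr (chr15:7090610-7197489 in GRCm38.p6) encodes the LIF-binding chain. Its brightest probe had levels of 3.003, 2.967 and 2.991 on DMSO replicates 1, 2 and 3 and 2.818, 2.77 and 2.891 on SC1 replicates 1, 2 and 3. All SC1 arrays were lower than all DMSO arrays, by little. The log2 fold change was -0.16 (SE 0.0464, 95% interval -0.274 to -0.047, limma adjusted p = 0.0379). Among all genes 52.3% changed by as much or more. The other Lifr probes had log2 fold changes of -0.20 and -0.27 in a limma fit over all probes (adjusted p = 0.051 and 0.0254, against 0.0453 for the brightest). The call of Lifr was lost in 12 of the 18 alternatives that keep 2 or more SC1 arrays, among them quantile normalization (log2 fold change -0.091, adjusted p = 0.137), leaving out any 1 array other than SC1 replicate 3 (adjusted p = 0.0818 to 0.101, each time), and scaling to spike-ins (adjusted p = 0.453).

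Il6st (chr13:112464070-112506860) encodes gp130, the signalling chain that LIFR and other cytokine receptors share. Its levels were 2.264, 2.155 and 2.29 with DMSO and 2.38, 2.286 and 2.29 with SC1. The ranges overlapped. The log2 fold change was 0.082 (SE 0.055, 95% interval -0.052 to 0.217, limma adjusted p = 0.294). Osmr (chr15:6813568-6874968) encodes the chain that pairs with gp130 to receive oncostatin M. Its spot signal was 4.24, 9.125 and 6.144 on the DMSO arrays and 4.943, 8.812 and 3.647 on the SC1 arrays. None of the 6 spots was called well above background, the lowest signal with that call being 7.90 to 9.57 depending on the array, so no fold is given.

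Jak1 (chr4:101151974-101265282) encodes the receptor-bound kinase. Levels were 2.003, 1.856 and 2.035 with DMSO and 1.929, 1.927 and 1.946 with SC1, and the SC1 arrays fell within the DMSO range. The log2 fold change was -0.031 (SE 0.0575, 95% interval -0.172 to 0.110, limma adjusted p = 0.714), and its sign turned with quantile normalization (0.009).

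Stat3 (chr11:100886806-100939594) was measured by 10 spots of 1 probe on every array, so its level rests on more spots than that of the members with 1 spot. The spots of an array had a coefficient of variation of 1.68% to 6.77%, the highest on SC1 replicate 2. Mean levels were 4.104, 4.105 and 3.998 with DMSO and 4.54, 4.402 and 4.539 with SC1. All SC1 arrays were above all DMSO arrays, and SC1 replicate 2 was the lowest of them. Stat3 rose by 0.42 (SE 0.0591, 95% interval 0.280 to 0.570, limma adjusted p = 0.0027), and 19.9% of all genes changed by as much or more. A further probe had levels of -1.449, -1.543 and -1.551 with DMSO and -1.187, -1.076 and -1.186 with SC1. Its log2 fold change of 0.36 (SE 0.0554, adjusted p = 0.00423 over all probes) differed from that of the first probe by 0.060 (exact permutation test of the difference within each array, two-sided, p = 0.4; the smallest p that 3 against 3 arrays can give is 0.1). The call was lost with spike-in scaling (log2 fold change 0.38, adjusted p = 0.0824) and with the second number of the slide position as a block (0.37, adjusted p = 0.0722). SC1 replicate 1 was 0.47 above the DMSO mean.

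The SOCS genes encode inhibitors that cytokine receptors induce against themselves. Of the 3 members of this family Socs2 and Socs3 fell and Socs1 did not pass. Socs2 (chr10:95383903-95417321) encodes a brake best known from growth hormone signalling. Like Stat3 it had 10 spots for its brightest probe, of which 9 or 10 were used per array, with coefficients of variation of 1.97% to 5.47%. Levels were 2.947, 2.934 and 2.967 with DMSO and 2.042, 1.967 and 2.02 with SC1. In signal units these arrays read 4155, 4068 and 4175 with DMSO and 2031, 1792 and 1797 with SC1, so the ranges lay far apart and the arrays within a group close together. The decrease of Socs2 was 0.94 on the log2 scale (a log2 fold change of -0.94, SE 0.0406, 95% interval -1.039 to -0.841, limma adjusted p = 4.34e-05), which left 52.1% of the DMSO level. As large a change was found for 5.10% of all genes.

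The other 2 Socs2 probes had log2 fold changes of -0.95 (SE 0.071) and -0.87 (SE 0.0433), with adjusted p = 0.000314 and 8.84e-05 over all probes. The brightest probe fell by 0.071 more than the last of them (exact permutation p = 0.1, two-sided, the smallest possible) and differed from the other by 0.013 (exact p = 0.7). All 3 probes are annotated to the same transcript. The decrease of Socs2 passed in all 18 alternatives that keep 2 or more SC1 arrays, with log2 fold changes of -0.98 to -0.87.

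**Figure D2:**
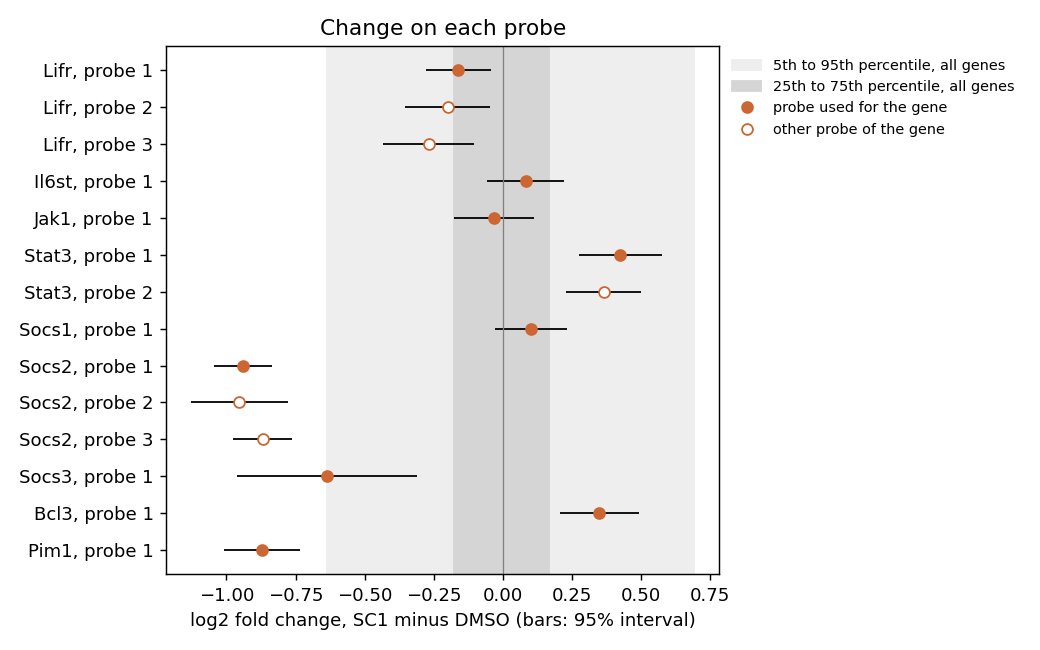
Log2 fold change of every probe above background (points) with its 95% interval (bars), filled for the probe used for the gene, over the interquartile range and a wider range of all genes (grey bands). The 3 Socs2 probes lie at -0.95 to -0.87, the 2 Stat3 probes at 0.36 and 0.42 and the 3 Lifr probes at -0.27 to -0.16.

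Socs3 (chr11:117966079-117970336) encodes the inhibitor that STAT3 induces and that acts on gp130 and JAK. Levels were 5.233, 5.181 and 5.046 with DMSO and 4.382, 4.805 and 4.365 with SC1. In signal units these were 20260, 19310 and 17640, then 10290, 12820 and 9132. SC1 replicate 2 stood between the DMSO arrays and the other SC1 arrays, and all SC1 arrays were below all DMSO arrays. The log2 fold change of Socs3 was -0.64 (SE 0.131, 95% interval -0.957 to -0.315, limma adjusted p = 0.0118), with the largest SE of the 9 tested members. It left 64.3% of the DMSO level. Without SC1 replicate 2 the log2 fold change was -0.78 (adjusted p = 0.00203). SC1 replicate 1 alone was at -0.77 against the DMSO mean. With the second position number as a block the log2 fold change was -0.62 (adjusted p = 0.0771), and the call was lost.

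Socs1 (chr16:10783808-10785536) encodes the family member that blocks JAK kinases directly and restrains interferon signalling. Its levels were 0.185, 0.079 and 0.057 with DMSO and 0.237, 0.217 and 0.171 with SC1. The lowest SC1 array was below the highest DMSO array. The log2 fold change was 0.10 (SE 0.0506, 95% interval -0.023 to 0.225, limma adjusted p = 0.171). The intervals of Socs2 and Socs3 lie below that of Socs1, and the difference between the genes was not tested.

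Among the remaining SOCS genes, Cish, the family member best known from STAT5 feedback, rose by 0.33 (SE 0.0513, limma adjusted p = 0.00411). Socs6, which acts on receptor tyrosine kinases, fell 1.32-fold (log2 fold change -0.40, SE 0.0988, limma adjusted p = 0.0231), and was at -0.29 on another probe. Cish lost its call with spike-in scaling (adjusted p = 0.215) and with the second position number as a block (0.0629). Over the 8 genes of the family 1 rose, 3 fell and 4 did not pass, with a median log2 fold change of 0.015. Among all genes tested 18.1% rose and 20.2% fell. Socs5, at 0.47 (SE 0.208, adjusted p = 0.126), was among those that did not pass and was named after its value was seen.

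Bcl3 and Pim1 are reported targets of STAT3. Bcl3 (chr7:19808462-19822824) encodes an atypical IkappaB protein that binds NF-kappaB dimers in the nucleus. Levels were 3.514, 3.532 and 3.615 with DMSO and 3.834, 3.89 and 3.984 with SC1, so that all SC1 arrays were above all DMSO arrays. It rose by 0.35 (SE 0.0564, 95% interval 0.211 to 0.487, limma adjusted p = 0.00477). The call was lost with spike-in scaling (log2 fold change 0.31, adjusted p = 0.177) and with the second number of the slide position as a block (0.41, adjusted p = 0.0537). SC1 replicate 1 was 0.28 above the DMSO mean.

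Pim1 (chr17:29490785-29496111) encodes a serine and threonine kinase that promotes survival and growth. Levels were 1.37, 1.29 and 1.381 with DMSO and 0.443, 0.557 and 0.425 with SC1. In signal units these were 1393, 1302 and 1391, then 670.8, 674.7 and 595.1, and the groups lay far apart. The log2 fold change of Pim1 was -0.87 (SE 0.0543, 95% interval -1.005 to -0.739, limma adjusted p = 0.000139), leaving 54.6% of the DMSO level, and 5.89% of all genes changed by as much. It passed in the 18 alternatives that keep 2 or more SC1 arrays, at -0.91 to -0.78. Of the related kinase genes, Pim2 fell 2.33-fold (log2 fold change -1.22, SE 0.0614, adjusted p = 6.78e-05), while Pim3 was at -0.032 (SE 0.0403, adjusted p = 0.583) and did not pass.

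Lists of the surrounding pathway were read from the same fit. They hold 73 distinct genes outside the 10, of which 68 were tested, 17 rose, 23 fell and 28 did not pass. Among all genes tested 38.4% were called, 18.1% higher and 20.2% lower, and these shares stand beside every list count below. With the 10 genes included, the share called ran from 36.4% for JAK and STAT genes to 77.8% for reported targets. Of the 40 that passed, 20 passed with spike-in scaling and 17 with the second slide position number as a block, and none turned its sign over 5 other scalings.

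**Figure D3:**
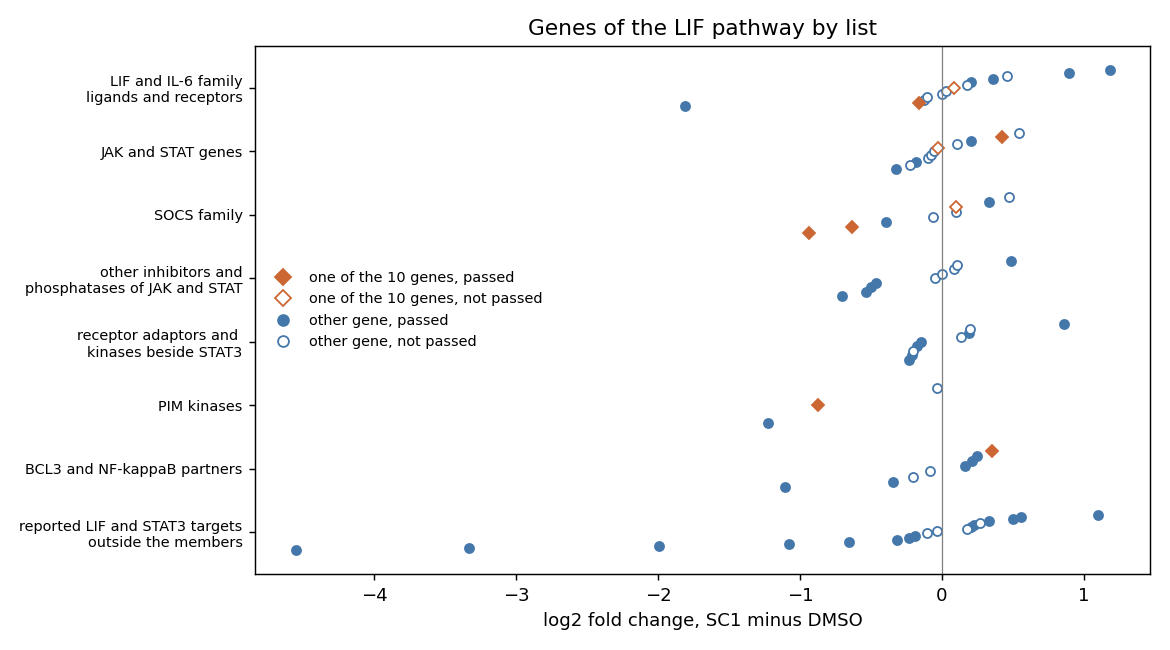
Log2 fold change of each tested gene (horizontal axis) in 8 lists of the LIF pathway, with diamonds for the 10 genes of this account, circles for other genes and filled symbols for an adjusted p under 0.05. The genes of each list lie on both sides of 0 except the PIM kinases, and the largest decreases are Myc and Gbx2 among the reported targets.

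Among ligands and receptors of the LIF and IL-6 family outside the 10 genes, 4 of 11 rose, 1 fell and 6 did not pass (median log2 fold change 0.177). Cntfr, the binding chain for ciliary neurotrophic factor, fell 3.51-fold (log2 fold change -1.81, SE 0.171, limma adjusted p = 0.000615). Il6ra, the interleukin-6 receptor gene, rose by 0.36 (SE 0.061, adjusted p = 0.00576) and Crlf2, a receptor gene for thymic stromal lymphopoietin, by 0.20 (SE 0.0403, adjusted p = 0.0108). Clcf1, a ligand gene of the family, rose by 0.89, and by 0.26 to 0.86 under other scalings. Osm, which encodes oncostatin M and was picked out once its value was known, rose by 1.18, and by 0.40 to 1.15 under other scalings. Both lay low, at levels of -4.961 and -4.885 with DMSO. With the second position number as a block Osm (adjusted p = 0.101), Il6ra (0.125) and Crlf2 (0.124) lost their calls, the latter pair also with spike-in scaling (0.156 and 0.577). The probe of Lif itself was above background on 2 DMSO arrays and 1 SC1 array and was not tested.

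Of the JAK and STAT genes outside the 10, 1 of 9 rose, 2 fell and 6 did not pass. Jak2, another cytokine receptor kinase gene, rose by 0.20 (SE 0.06, limma adjusted p = 0.0404). Stat5a fell (log2 fold change -0.33, SE 0.0686, limma adjusted p = 0.0128) and so did Stat5b (-0.18, SE 0.0529, adjusted p = 0.0404); both encode factors activated by growth hormone and prolactin receptors. Jak2, Stat5a and Stat5b had adjusted p-values of 0.572, 0.0878 and 0.395 after scaling to spike-ins, and with the second position number as a block 0.149, 0.0848 and 0.113, so that each lost its call. With Stat3 the list had 4 calls in 11 genes, 36.4% against 38.4% of all genes tested. It had 2 calls without DMSO replicate 1, DMSO replicate 2, SC1 replicate 1 or SC1 replicate 3.

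Of 9 other inhibitors of the pathway, 4 fell, 1 rose and 4 did not pass (median -0.052). Cbl, a ubiquitin ligase gene, fell 1.63-fold, Ptpn6, which encodes the phosphatase SHP1, 1.45-fold, Pias2 1.41-fold and Sh2b3, an adaptor gene that restrains JAK2, 1.38-fold (limma adjusted p from 0.00055 to 0.00128). Of these Sh2b3 lost its call with the second position number as a block (adjusted p = 0.0546). Pias3, whose product binds STAT3 and which was named after its value was seen, rose by 0.49 (SE 0.144, adjusted p = 0.0405). Pias3 lay low, at a level of -3.82 with DMSO. It did not pass in at least 1 of the other scalings (highest adjusted p = 0.144, lowest log2 fold change 0.15). With the second position number as a block it lost its call (adjusted p = 0.212). When SC1 replicate 1, SC1 replicate 2 or any 1 DMSO array was left out, no gene of this list was called higher.

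Of the adaptors and kinases that carry the signal beside STAT3, 2 of 9 rose, 4 fell and 3 did not pass. Gab1 and Shc1, adaptor genes, and Yes1, a SRC family kinase gene, had log2 fold changes of -0.21, -0.18 and -0.23 (limma adjusted p = 0.0176, 0.0172 and 0.0243). Ptpn11, which encodes SHP2, was at -0.15 (adjusted p = 0.034) and Pik3r1, a regulatory subunit gene of PI3 kinase, at 0.19 (adjusted p = 0.0406); these were named after their values were seen. Each of these 5 genes lost its call with spike-in scaling (adjusted p = 0.262 to 0.614) and with the second position number as a block (0.147 to 0.238). Ptpn11 came to a log2 fold change of -0.057 under another scaling (highest adjusted p = 0.361), Shc1 reached an adjusted p of 0.0557 and Pik3r1 0.0988. The 6 calls became 4, 2, 2, 1 and 2 without DMSO replicates 1, 2 and 3 and SC1 replicates 1 and 2.

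Of the NF-kappaB genes beside Bcl3, 3 of 7 rose, 2 fell and 2 did not pass. Nfkb1, which encodes the precursor of the p50 subunit that BCL3 binds, fell 2.15-fold (log2 fold change -1.11, SE 0.0677, limma adjusted p = 0.00013; -0.985 on another probe). Nfkb2 fell 1.27-fold (adjusted p = 0.0221), while Relb rose by 0.24 (adjusted p = 0.0412) and the inhibitor gene Nfkbia by 0.21 (adjusted p = 0.0103). Rela, named after its value was seen, rose by 0.16 (adjusted p = 0.0423). Nfkb2, Relb, Nfkbia and Rela lost their calls with spike-in scaling (adjusted p = 0.0788 to 0.711) and with the second position number as a block (0.091 to 0.320), while Nfkb1 kept its call in both. With Bcl3 the list had 6 calls, and 4 without DMSO replicate 2, DMSO replicate 3, SC1 replicate 1 or SC1 replicate 2 and 3 without SC1 replicate 3.

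Reported LIF and STAT3 targets outside the 10 genes moved both ways: 6 of 18 rose, 8 fell and 4 did not pass (median -0.067). Myc fell 23.4-fold, the homeobox gene Gbx2 10.1-fold and Noct, a gene of circadian metabolism, 3.98-fold, while Tfcp2l1, a self-renewal factor gene, rose 2.14-fold (limma adjusted p from 2.45e-06 to 2.74e-05). Myc lay low with SC1, at a level of -3.463, and its log2 fold change of -4.55 ran from -4.59 to -3.36 over 5 other scalings. Smaller changes, named after their values were seen, were those of Cebpd (-1.08), Ier3 (-0.65), Cebpb (0.56) and Sbno2 (0.50), with adjusted p from 5.45e-05 to 0.00171. Klf4, a pluripotency factor gene downstream of STAT3 that was likewise named after its value was seen, was at 0.205 (adjusted p = 0.0216). Klf5 of the same list, also named after its value was seen, went the other way, at -0.189 (adjusted p = 0.0113). Klf4 and Klf5 lost their calls with spike-in scaling (adjusted p = 0.559 and 0.363) and with the second position number as a block (0.0975 and 0.139). Klf4 also lost it with the replicate number as a block (0.0525), and Klf5 under another scaling (highest adjusted p = 0.154).

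By the pattern over the 6 arrays, the genes most like Socs2, among 585 with a symbol and a log2 fold change within 0.3 of it, were Wnk2, Dnmt3l and Rundc3b (Pearson r = 0.9997, 0.9996 and 0.9995). Those most like Stat3, among 3920, were Gramd1a, Pttg1ip and Irx2 (r = 0.9983, 0.9979 and 0.9978). The 6 points share 2 groups of 3 arrays, so any gene with tight groups and a change in that direction scores high, and the order among such genes is a description.

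**Figure D4:**
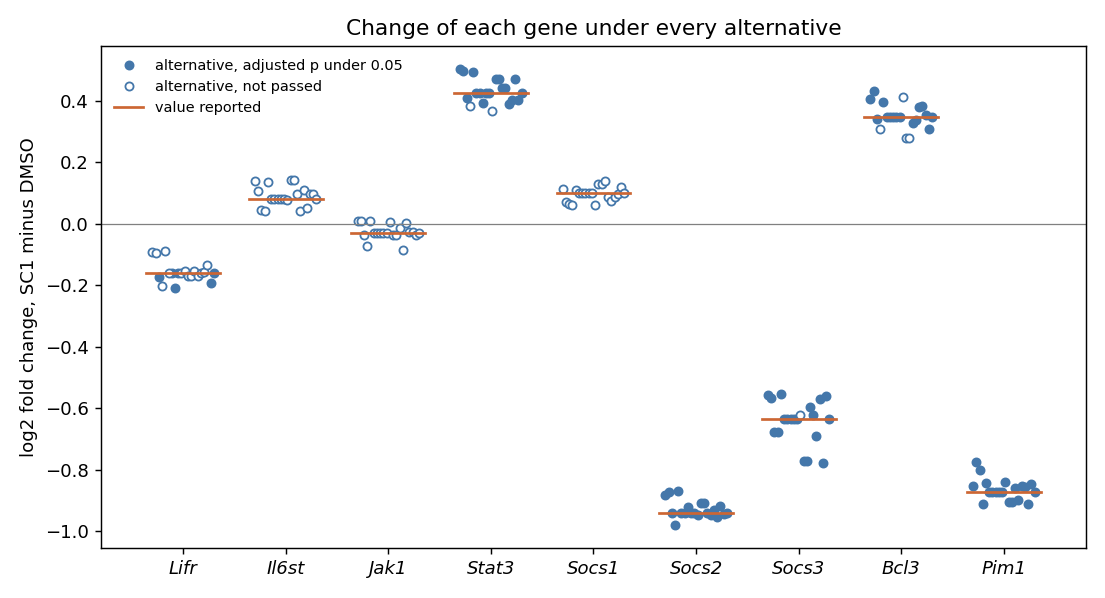
Log2 fold change of the 9 tested genes under 20 alternatives each (circles, filled where the adjusted p was under 0.05), with the reported value as a line. For 2 of the alternatives, which rest on 1 SC1 array, the fill is not read as a test. Socs2 and Pim1 are filled in the other 18, Lifr mostly open, and Stat3, Socs3 and Bcl3 keep their direction in all 20.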

How the data were processed

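RNA of 3 DMSO and 3 SC1 samples was amplified and labelled with Cy3 per the labels' protocols. Agilent Feature Extraction 10.7 read the spots, per the submitters' processing notes. The authors deposited, per array, an intensity for each spot corrected for background and spatial trend, raw median intensities of spot and local background, and flags coded 0 or 1 (other values), and a matrix of log2 intensities whose columns have nearly the same quantiles (median 5.184 in each over non-control probes), method not stated. Per the file headers, the array design used mm9; only RefSeq positions in GRCm38.p6 are printed.

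Outlying spots (137 to 201 per array) were left out, no spot was saturated, log2 signals were averaged over the spots of a probe, and the 75th percentile of the array was subtracted. The number of arrays limits the precision. A probe entered the test if each of the 3 arrays of some group had it well above background and all 6 had a value (59 of all probes lacked an array). RefSeq named 27235 of 55681 probes by accession. The brightest probe stood for a gene. limma 3.58.1 in R 4.3.3 (lmFit, eBayes) compared the groups with two-sided p-values, adjusted by Benjamini and Hochberg's method across the genes tested and called under 0.05. The members, lists, rule for named genes (the 10 members, and up to 4 genes per list with the smallest adjusted p) and tests were chosen with earlier results of these data known. The values of 1 gene of the adaptor list are not reported here. The pipeline was tested on simulated data. Alternatives were 5 other scalings (normexp with offset 50), 2 filters, the mean of probes, every probe, an intensity trend with robust prior, the replicate number or either number of the slide position as a block, leaving out each array, and, added after the data were seen, the arrays at position 1 alone. Same-numbered arrays did not deviate together, so the numbers were not treated as pairs. Python 3.11.15 and matplotlib 3.10.9 made the plots.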

Additional observations from a re-analysis of the deposited data

How the results depend on the processing

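The direction of Lifr, Il6st, Stat3, Socs1, Socs2, Socs3, Bcl3 and Pim1 held in all 20 alternatives. Jak1, which did not pass in any of them, turned sign with quantile normalization (0.009), normexp and quantile normalization (0.010), the deposited matrix (0.009), the second slide position number as a block (0.007) and without DMSO replicate 3 (0.004); without 1 array it ran from -0.085 to 0.004. The first position number as a block and position 1 alone are the same contrast of SC1 replicate 1 with 3 DMSO arrays. Its spread comes from the DMSO arrays and, in the fit with the block, also from SC1 replicates 2 and 3. Neither shows anything about stability, and their calls do not enter the counts of kept calls. The numbers of calls listed for them below are not read as tests, since 1 SC1 array carries the contrast. Of the other 18 alternatives the call was kept in 18 for Socs2 and Pim1, 17 for Socs3, 16 for Stat3 and Bcl3 and 6 for Lifr. Calls among the 10 genes numbered 6, against 3 with spike-in scaling, 2 and 4 with the second and first position number as a block, 4 at position 1 alone and 5 to 6 when 1 array was left out; over all genes these counts were 9752, 5086, 3324, 5542, 4422 and 7747 to 8399. With normexp and 75th percentile scaling 6970 of all genes rose and 5071 fell, against 4613 and 5139.

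In the lists, spike-in scaling gave 3 calls for ligands and receptors, 1 for JAK and STAT genes, 1 for adaptors, 1 for NF-kappaB genes and 8 for reported targets. The second position number as a block gave 2, 0, 1, 1 and 8, with 2 for the SOCS family and 3 for other inhibitors; with the first number these were 2, 2, 1, 2 and 9, and at position 1 alone 1, 2, 1, 1 and 8, with 2 for the SOCS family. The 0 calls of JAK and STAT genes come from limma, where 3 of the 11 genes had an unadjusted p under 0.05, and no other tool was run. Without a filter JAK and STAT genes had 2 calls, adaptors 3 and NF-kappaB genes 4. When 1 array was left out, the calls ran from 2 to 3 for JAK and STAT genes, 1 to 5 for adaptors and 3 to 5 for NF-kappaB genes. The replicate number as a block left 5 calls among the 10 genes (Lifr lost, adjusted p = 0.0791), 2 for adaptors and 4 for NF-kappaB genes, and changed no other list count by over 1.5 times; 31 of the 40 pathway genes that passed did so with it. Deviations of same-numbered arrays from their group means correlated at -0.0133, -0.0365 and -0.0154 over genes. Each DMSO array correlated best with an SC1 array of another replicate number. These were DMSO replicate 1 with SC1 replicate 2 (0.0726) and DMSO replicate 2 with SC1 replicate 3 (0.0791), pairs that share a second position number. DMSO replicate 3 correlated best with SC1 replicate 1 (0.0566), and these share none. The cause of these differences was not tested. Scalings moved the median of all genes to between -0.046 and 0.042. Genes near background, such as Osmr and Lif, cannot be compared at this signal.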
